A study of Mus musculus with 5 samples.

Results

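The F-box protein genes of the newborn mouse ovary were measured in Lhx8 null and wild type animals. All probe sets annotated to a single gene symbol of Fbxo, Fbxl or Fbxw followed by a number were taken, dim ones included, which gave 114 probe sets of 66 genes, out of 45101 probe sets and 18193 genes in all. The 66 genes were 32 Fbxo, 16 Fbxl and 18 Fbxw genes, and 26 of them had more than 1 probe set. The 10 Fbxw genes numbered 13 and above, here called the oocyte Fbxw genes, are described apart from the other 56 F-box genes. The arrays came from 3 pools of Lhx8 null ovaries (replicates 1, 2 and 3) and 2 pools of wild type ovaries (replicates 2 and 3), from females at postnatal day 0.5 on the same C57/BL6/129SVEV hybrid background. Each pool held 50 ovaries of at least 25 animals on 1 array, so a replicate is a pool. The sources used here do not give the nature of the null allele, and no wild type array numbered 1 was analysed here. Lhx8 is a LIM homeobox gene whose product regulates transcription in oocytes, and the comparison asks which transcripts differ where it is lost.

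F-box proteins are the receptors of SCF ubiquitin ligases. The F-box binds the adaptor Skp1, which sits on the cullin Cul1 with the RING protein Rbx1, and the rest of the F-box protein holds the substrate that is to be marked for destruction. Receptors with WD40 repeats are named Fbxw, those with leucine-rich repeats Fbxl, and those with other or no known substrate domains Fbxo. Rodents carry an expanded set of Fbxw genes, of which mouse Fbxw15 is known for its expression in oocytes.

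All oocyte Fbxw genes but Fbxw17 lie together in the genome, and those of them with a promoter window at hand have like promoter sequences. In the RefSeq annotation of mouse assembly GRCm38.p6, 15 Fbxw genes numbered 13 and above follow one another on chromosome 9, with 3 small nuclear RNA genes as the only other annotated genes between the first and the last. Of these 15 genes, 9 had a probe set of their own on the array, and the order along the chromosome was Fbxw21, Fbxw13, Fbxw14, Fbxw22, Fbxw16, Fbxw19, Fbxw24, Fbxw18 and Fbxw27. The tenth oocyte Fbxw gene, Fbxw17, lies on chromosome 13. Promoter windows, which run from 250 bases before to 50 bases after the annotated start, were at hand for 12 genes of the chromosome 9 run, all on the minus strand. Fbxw13, Fbxw22 and Fbxw27 had no window, and several windows belong to genes without a probe set of their own, such as Fbxw15 and Fbxw23. Apart from that of Fbxw23, the windows of the run were 64.8% to 96.7% identical between pairs (median 85.6% over 55 pairs of 11 genes). The window of Fbxw17 was 46.0% to 53.9% identical to those of the run, and that of Fbxw23 46.1% to 50.4%.

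The windows of 4 genes of the run that fell in Lhx8 null ovaries and of Fbxw17, which did not pass the test, are printed to show this likeness. Fbxw19 of the run did not pass either, although its window was 64.8% to 80.2% identical to the others apart from Fbxw23. The choice printed therefore does not show that likeness goes with a fall. They are RefSeq sequences of GRCm38.p6, written from the 5′ to the 3′ end of the gene's own strand, and capitals mark CAGCTG, an E-box sequence that reads the same on both strands.
Fbxw18, chr9:109702651-109702950, minus strand: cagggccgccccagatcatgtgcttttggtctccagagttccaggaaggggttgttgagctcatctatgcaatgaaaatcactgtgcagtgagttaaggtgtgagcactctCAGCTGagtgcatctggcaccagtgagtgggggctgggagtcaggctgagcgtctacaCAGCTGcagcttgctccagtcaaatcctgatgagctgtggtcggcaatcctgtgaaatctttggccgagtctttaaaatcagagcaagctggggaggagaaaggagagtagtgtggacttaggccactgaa
Fbxw24, chr9:109626010-109626309, minus strand: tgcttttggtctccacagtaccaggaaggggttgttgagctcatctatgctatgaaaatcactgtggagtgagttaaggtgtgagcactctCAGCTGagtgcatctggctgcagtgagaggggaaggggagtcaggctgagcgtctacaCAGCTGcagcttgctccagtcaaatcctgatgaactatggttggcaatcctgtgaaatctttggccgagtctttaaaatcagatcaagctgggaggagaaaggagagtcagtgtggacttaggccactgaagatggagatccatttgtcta
Fbxw14, chr9:109287627-109287926, minus strand: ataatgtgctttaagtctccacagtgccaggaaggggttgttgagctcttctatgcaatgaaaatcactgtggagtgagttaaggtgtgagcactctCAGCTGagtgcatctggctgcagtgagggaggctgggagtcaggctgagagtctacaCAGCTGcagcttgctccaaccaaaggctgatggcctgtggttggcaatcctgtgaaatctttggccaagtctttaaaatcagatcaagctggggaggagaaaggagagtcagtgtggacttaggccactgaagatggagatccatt
Fbxw21, chr9:109161973-109162272, minus strand: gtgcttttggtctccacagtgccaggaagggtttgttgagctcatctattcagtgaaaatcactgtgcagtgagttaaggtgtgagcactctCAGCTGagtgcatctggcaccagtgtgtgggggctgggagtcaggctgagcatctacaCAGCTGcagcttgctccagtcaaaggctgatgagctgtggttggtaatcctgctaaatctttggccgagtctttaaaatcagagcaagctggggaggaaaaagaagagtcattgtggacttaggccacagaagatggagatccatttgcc
Fbxw17, chr13:50417614-50417913, plus strand: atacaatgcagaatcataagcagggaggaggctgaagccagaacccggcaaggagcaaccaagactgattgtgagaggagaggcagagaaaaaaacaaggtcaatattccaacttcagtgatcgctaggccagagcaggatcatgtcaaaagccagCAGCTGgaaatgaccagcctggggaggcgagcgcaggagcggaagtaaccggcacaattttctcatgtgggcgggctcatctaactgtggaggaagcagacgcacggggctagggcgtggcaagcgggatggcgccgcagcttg

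CAGCTG, which was chosen after the sequences were seen, stood in 11 of the 12 windows of the run, in that of Fbxw17 and in 16.3% of all 32851 promoter windows of the same length. The 11 windows are near copies of each other and are not 11 separate observations. Sequences of the kind that homeodomains bind were also searched on both strands. TAATTA stood in 0 of the 12 windows of the run and in 5.29% of all windows. The share for TAATTG was likewise 0 of 12, against 8% of all windows. TGATTG stood in 1 of 12, the window of Fbxw16, as well as in that of Fbxw17 and in 14% of all windows. These counts describe letters in the windows and say nothing of which factor binds there.

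The arrays were comparable within groups. Each array had a trimmed mean signal of 500 as deposited, and normalised arrays correlated at 0.960 to 0.974 within the null group, at 0.970 within the wild type pair and at 0.905 to 0.931 across groups. Lhx8, measured by 1 probe set whose place relative to the altered part of the gene was not given, gave 332.6, 159 and 347.4 signal units in the null pools, against 6450.1 and 5223.1 in the wild type pools. The 8 germ cell markers that were listed, from Ddx4 and Dazl to Zp3, all fell, and their summed signal was 6439.8 to 10589.6 on null arrays and 50465.9 to 50717.1 on wild type arrays. All 6 granulosa markers fell as well (summed signal 8887.6 to 10500.1 on null and 16877.2 to 18678.9 on wild type arrays), and all 5 oviduct epithelium markers rose (10646.8 to 12687.3 on null and 857.6 to 989.1 on wild type arrays). In whole ovaries, fewer cells of a type and less RNA per cell cannot be told apart.

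Of the 66 F-box genes, each taken by its brightest probe set, 20 were lower and 3 higher in Lhx8 null ovaries and 43 were not called. A call means an adjusted p below 0.05 in a two-sided limma fit, with Benjamini-Hochberg adjustment over all probe sets. Among all 18193 genes 13.6% were lower and 14% higher by the same rule. Of the 10 oocyte Fbxw genes 7 were lower and 0 higher, and of the 56 other F-box genes 13 were lower and 3 higher. The median log2 fold change, null over wild type, was -2.42 for the oocyte Fbxw genes, -0.21 for the other F-box genes and -0.02 for all genes. Among the other F-box genes, 8 of 32 Fbxo, 3 of 16 Fbxl and 2 of 8 Fbxw genes were lower, and 2, 0 and 1 were higher. Of the 43 bright ones 12 were lower and 3 higher, where 18.6% of all bright genes were lower and 20.7% higher, and of the 13 dim ones 1 was lower and 0 higher, where 6.05% of all dim genes were lower and 3.89% higher. At an unadjusted p below 0.05 in the same limma fit, 6 of the 66 genes were higher: Fbxl6, Fbxl7, Fbxo32, Fbxo5, Fbxw4 and Fbxw8. These included 2 Fbxl genes, 0 dim F-box genes and 0 oocyte Fbxw genes. In either direction, 33 of the 66 genes and 7303 of all 18193 genes had such a p. By arrays that did not overlap, 24 of the 56 were lower and 8 higher, where 25.1% of all genes were lower and 30.6% higher. By single probe sets, 28 of the 114 were lower and 7 higher, where 10.3% and 10.7% of all probe sets were. All fold changes are on the scale log2(signal + 16), which understates those of dim genes.

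**Figure D1:**
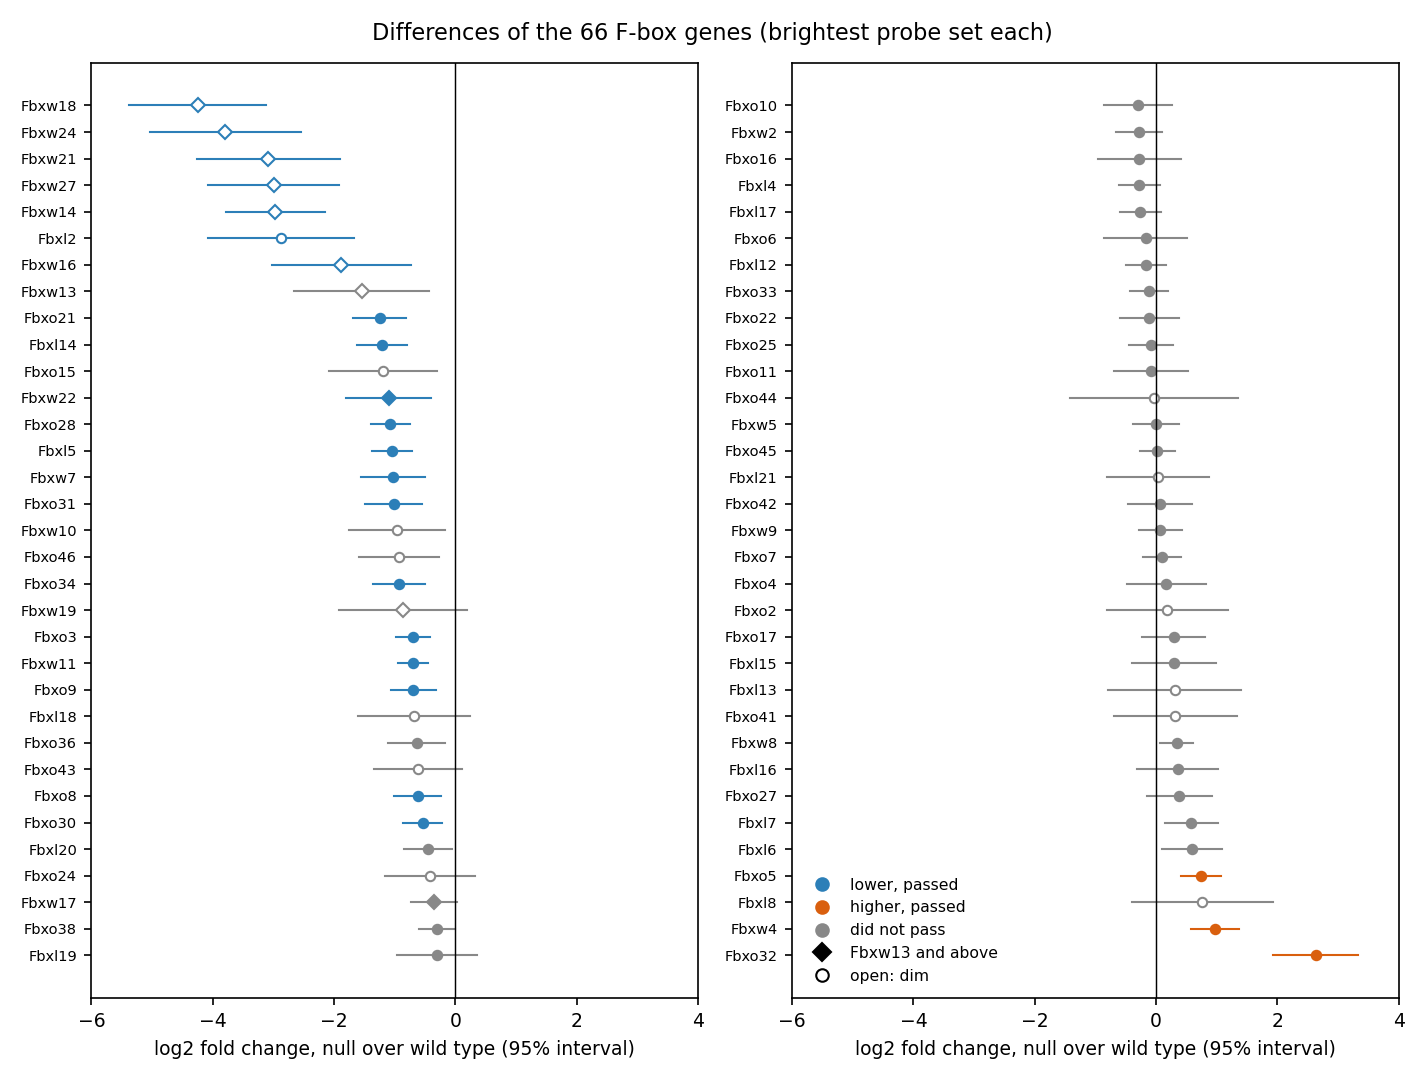
Log2 fold change (null over wild type, horizontal axis) of each of the 66 F-box genes with its 95% interval, ordered from the lowest at the top left to the highest at the bottom right; diamonds are Fbxw13 and above, open symbols are genes in the dimmest 40% of genes, blue and orange passed the test. Oocyte Fbxw genes fill the 5 lowest places, Fbxl2 is the lowest of the other genes at -2.88, and Fbxo32 is the highest at 2.63.

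Every oocyte Fbxw gene had a negative fold change, and 7 of the 10 passed. The 3 that did not were Fbxw13, Fbxw19 and Fbxw17. For 9 of the 10, every null array was below every wild type array, as was the case for 25.1% of all genes. Of the 10 genes, 8 were dim, with a mean level over all arrays in the lowest 40% of genes (below a signal of about 150). Of these 8, 6 were lower, against 6.05% of all dim genes. A fall on the null arrays itself lowers that mean, so being dim is not independent of the fall. Fbxw16, Fbxw18, Fbxw24 and Fbxw27 were above 150 on both wild type arrays. The summed signal of the 9 genes of the chromosome 9 run was 386.6, 318.3 and 541.9 in null pools 1, 2 and 3 and 1857.3 and 3293.4 in wild type pools 2 and 3. The substrates of these receptors are not named here.

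Fbxw18 gave 8.8, 42.7 and 17.8 signal units in null pools 1, 2 and 3, and 429.8 and 1002.4 in wild type pools 2 and 3. The null arrays were all far below the wild type arrays, and the log2 fold change of -4.25 (SE 0.49, adjusted p = 0.000808) was the lowest of the 66 genes. Fbxw24 had 32.5, 4.1 and 31 in null ovaries and 265.9 and 744.9 in wild type ovaries. It fell by 3.79 (SE 0.54, adjusted p = 0.00211), and for both genes wild type replicate 3 was more than 2-fold above wild type replicate 2. Fbxw27, at the end of the run, had 18.5, 40.4 and 14 in null ovaries and 170.5 and 397.5 in wild type ovaries, and fell by 3.00 (SE 0.47, adjusted p = 0.00327). In all 3 genes wild type replicate 3 was the higher of the wild type arrays.

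At the other end of the run, Fbxw21 had signals of 1.5, 2.6 and 25.5 in null ovaries and 113.8 and 241.9 in wild type ovaries. It fell by 3.09 (SE 0.51, adjusted p = 0.00421), with null replicate 3 above the other null arrays. Fbxw14 had 5.6, 7.1 and 3 in null ovaries and 145.5 and 122.3 in wild type ovaries, with arrays of a group close together, and fell by 2.97 (SE 0.36, adjusted p = 0.00098). The fold of a gene near background depends on the constant added: Fbxw14 stood at -4.69 with 1 and at -1.62 with 64 in place of 16, and passed with both.

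Fbxw22 and Fbxw16, in the middle of the run, had calls nearer the threshold. Fbxw22 had 237.8, 123.6 and 257.1 in null ovaries and 418.5 and 403.4 in wild type ovaries, and fell by 1.10 (SE 0.31, adjusted p = 0.0365). It kept a signal above 100 on every null array. Fbxw16 had 19.1, 53.6 and 87.6 in null ovaries and 161.7 and 223.9 in wild type ovaries at its brighter probe set, which fell by 1.88 (SE 0.50, adjusted p = 0.0308). Its dimmer probe set, at 2.9, 18.3 and 37.8 in null ovaries and 32.6 and 30.6 in wild type ovaries, had -0.73 and did not pass. Both calls were lost on leaving out wild type replicate 2 or 3, fits that have 1 wild type array and so less data. The fold changes were then -2.07 and -1.67 for Fbxw16 and -1.07 and -1.09 for Fbxw22. Without null replicate 2, Fbxw16 had adjusted p = 0.0689 and Fbxw22 0.06. Both also missed the threshold without a trend in the variance model (adjusted p = 0.0674 for Fbxw16 and 0.0876 for Fbxw22), and Fbxw16 did so with its probe sets averaged (adjusted p = 0.105). Fbxw21 and Fbxw27 were lost without wild type replicate 3, where they stood at -2.64 and -2.45.

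The members that did not pass differed in kind. Fbxw13 had 3.9, 5.8 and 2.6 in null ovaries and 75.8 and 14 in wild type ovaries, so that the groups did not overlap but the wild type arrays lay far apart (-1.55, SE 0.49, adjusted p = 0.0569). It passed under median centring (adjusted p = 0.0425) and with a constant of 1 (adjusted p = 0.0481). With wild type replicate 2 as the only wild type array, it stood at -2.40, and with wild type replicate 3 as the only one at -0.76. Fbxw19 had 58.9, 38.4 and 103.3 in null ovaries and 75.8 and 143.1 in wild type ovaries, with groups that overlapped (-0.86, SE 0.46, adjusted p = 0.236). Fbxw17, the gene on chromosome 13, had 832.7, 616.8 and 649.8 in null ovaries and 965.1 and 862.2 in wild type ovaries (-0.36, 95% interval -0.74 to 0.02, adjusted p = 0.173). It passed without null replicate 1 (-0.49, adjusted p = 0.0343) and under median centring of the arrays (-0.63, adjusted p = 0.02). Probe sequences were not used here, and whether probe sets of the run also take signal from its other genes was not tested.

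**Figure D2:**
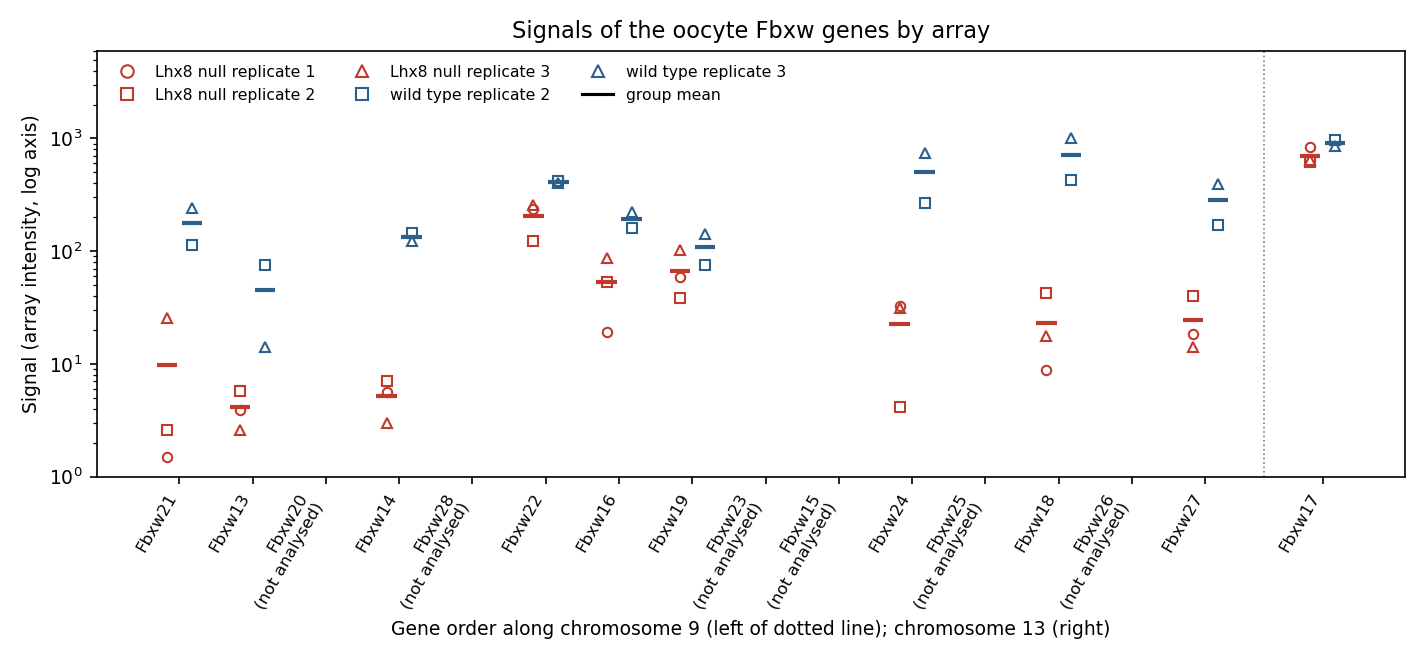
Signal (log axis) of the oocyte Fbxw genes on each array, with Lhx8 null arrays (red) left of wild type arrays (blue) and a bar at each group mean; genes stand in their order along chromosome 9, with Fbxw17 of chromosome 13 at the right, and names without points were not analysed. Within the run the null arrays lie below the wild type arrays for each gene but Fbxw19, and Fbxw17 shows the smallest gap.

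Between groups the oocyte Fbxw genes went in the same direction as the germ cell markers, whose part in the fall was not tested. Between wild type pools 2 and 3 the sums did not move alike. The sum of the chromosome 9 run was 1857.3 and 3293.4, and the marker sum was 50717.1 and 50465.9. The 8 markers had log2 fold changes from -6.30 (Zp3) to -1.81 (Dazl), with a median of -2.94. The oocyte growth factor gene Gdf9 had -4.62, and Ddx4, a marker of all germ cells, had -2.70. The log2 fold changes of Fbxw18, Fbxw24, Fbxw21, Fbxw27 and Fbxw14 lay between those of Gdf9 and Ddx4. Those of Fbxw13, Fbxw22, Fbxw19 and Fbxw17 were nearer 0 than that of any marker in the list.

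Among the other F-box genes, Fbxl2 had the lowest fold change. Fbxl2 encodes a receptor with a lipid anchor at its end. It had signals of 5.5, 44.7 and 52 in null ovaries and 262 and 320.9 in wild type ovaries, with no overlap, and fell by 2.88 (SE 0.52, adjusted p = 0.00626). Leaving out wild type replicate 2 or 3, which left 1 wild type array, ended the call with little change in the fold (-3.00 and -2.73). Fbxo3, which in human and mouse cells acts in the degradation of FBXL2, had 1221.5, 1333.4 and 1376.3 in null ovaries and 2117.4 and 2353.7 in wild type ovaries, and fell by 0.71 (SE 0.12, adjusted p = 0.005). A second probe set of Fbxo3 fell by 0.42, and the other 3 did not pass (-1.24 to -0.09). Its brightest probe set had adjusted p = 0.0589 without wild type replicate 3, 0.0586 without a variance trend and 0.0942 with probe sets averaged.

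Fbxo21, Fbxl14, Fbxo28 and Fbxl5 were lower by about 2-fold and were called with each array left out in turn. Fbxo21, whose human counterpart acts on the protein EID1, had 932.6, 1272.5 and 1275.5 in null ovaries and 3274 and 2454.6 in wild type ovaries (-1.25, SE 0.19, adjusted p = 0.00291), and its second probe set fell by 1.00. Fbxl14, whose human counterpart acts on the transcription factor SNAI1, had 574.1, 417.9 and 590.7 in null ovaries and 1244.6 and 1257.4 in wild type ovaries (-1.21, SE 0.18, adjusted p = 0.0023). Each null array was below each wild type array for both genes. Fbxl5, an iron-binding receptor that controls the iron regulatory protein IRP2, had 1237.2, 1475.4 and 1646.2 in null ovaries and 2958.5 and 3272.3 in wild type ovaries (-1.05, SE 0.15, adjusted p = 0.00184). Fbxo28 had 595, 644.1 and 661.4 in null ovaries and 1297.7 and 1485 in wild type ovaries (-1.08, SE 0.14, adjusted p = 0.00135). The probe sets of Fbxo28 did not move alike: another fell by 1.41 and the remaining one stood at -0.03 with a 95% interval of -0.38 to 0.33.

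Fbxw7, Fbxo31 and Fbxw11 also fell at their brightest probe sets. Fbxw7, the receptor for cyclin E, MYC and NOTCH, had 764.1, 428.7 and 552.8 in null ovaries and 1323.1 and 1076.4 in wild type ovaries (-1.03, SE 0.23, adjusted p = 0.0159). Its other probe set stood at -0.62 and did not pass. The call ended without wild type replicate 2 (adjusted p = 0.142), without wild type replicate 3 (0.0792), without a variance trend (0.0749) and with probe sets averaged (0.068). Fbxo31, whose human counterpart acts on cyclin D1, had 297.2, 267 and 205.5 in null ovaries and 506.5 and 500.6 in wild type ovaries (-1.02, SE 0.20, adjusted p = 0.01). A second probe set of Fbxo31 stood at 0.36 and did not pass, and the first had adjusted p = 0.0813 without wild type replicate 2, 0.0909 without wild type replicate 3 and 0.249 when averaged with the second. Fbxw11, one of the pair of beta-TrCP receptors that act on beta-catenin, had 8186.8, 7752.9 and 7599.7 in null ovaries and 11078.2 and 11589.2 in wild type ovaries (-0.70, SE 0.11, adjusted p = 0.00324). The other beta-TrCP gene, Btrc, had -0.16 at its brightest probe set (95% interval -0.54 to 0.21) and did not pass, although a dimmer one fell by 0.81.

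Fbxw11 was the only one of the 66 genes with probe sets called in both directions. Beside the brightest, probe sets at -1.28 (SE 0.18) and -0.51 (SE 0.12) fell. A dim one rose by 2.58 (SE 0.43, adjusted p = 0.0044), with 183.7, 69.3 and 106.3 in null ovaries and 4.4 and 3.2 in wild type ovaries, and another dim one stood at 0.69. When the 5 probe sets were averaged the gene had 0.16, which turned its direction. Without a variance trend its brightest probe set had adjusted p = 0.0597. Of the other genes with several probe sets, Fbxo3, Fbxo9, Fbxo21 and Fbxo28 each had 2 that fell, and Fbxo32 had 3 that rose. Fbxl7 did not pass at its brightest probe set (0.58, adjusted p = 0.0665), while another rose by 1.60. Fbxo22, which encodes a receptor of histone demethylases, stood at -0.11 at its brightest probe set, and a dim one fell by 1.61, so that the average of its probe sets was -0.66 (adjusted p = 0.0308). All 7 probe sets of Fbxw2 did not pass, with values from -0.90 to 0.83.

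**Figure D3:**
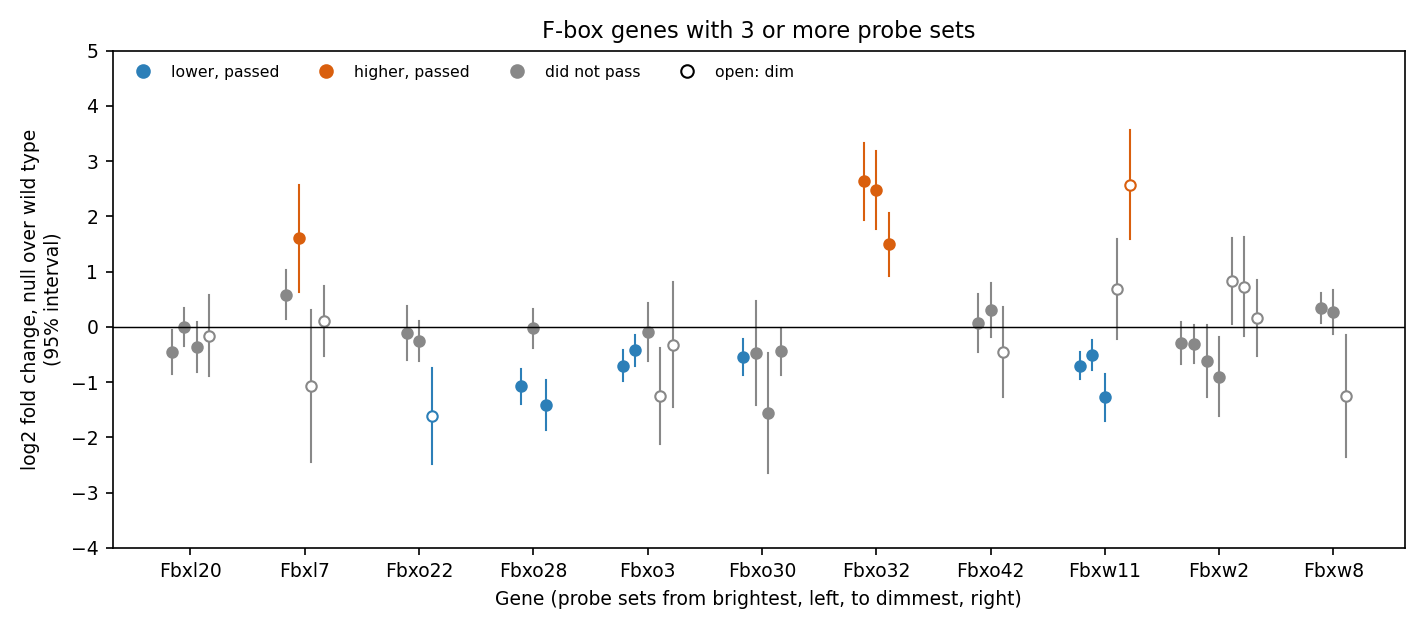
Log2 fold change (null over wild type, vertical axis) with its 95% interval for every probe set of the F-box genes other than oocyte Fbxw that have 3 or more, from the brightest at the left to the dimmest at the right within each gene; open symbols are dim probe sets, blue and orange passed. The 3 probe sets of Fbxo32 lie at 1.49 to 2.63, and those of Fbxw11 run from -1.28 to 2.58.

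Further falls were Fbxo34, Fbxo30, Fbxo9 and Fbxo8, of which Fbxo9 and Fbxo8 were picked out with their values in view. Fbxo34, which has been studied in the meiotic maturation of mouse oocytes, had 446, 603.7 and 508.8 in null ovaries and 1109.7 and 905 in wild type ovaries (-0.93, SE 0.19, adjusted p = 0.00945). It did not pass without wild type replicate 2 (adjusted p = 0.1) or 3 (0.0506), or without a variance trend (0.0544). Fbxo30, whose protein acts in muscle wasting in mice, had 617.8, 533.7 and 542.7 in null ovaries and 849.9 and 820.4 in wild type ovaries (-0.54, SE 0.14, adjusted p = 0.0296). Its other 3 probe sets stood between -1.55 and -0.44 and did not pass, and the call was lost on leaving out any array but null replicate 1 (adjusted p = 0.0896 to 0.144), without a variance trend (0.099) and with probe sets averaged (0.0739). Fbxo9 and Fbxo8 fell by 0.70 and 0.62 (adjusted p = 0.0173 and 0.0332), also with no overlap. Both were lost on leaving out any array but null replicate 1 and without a variance trend.

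**Figure D4:**
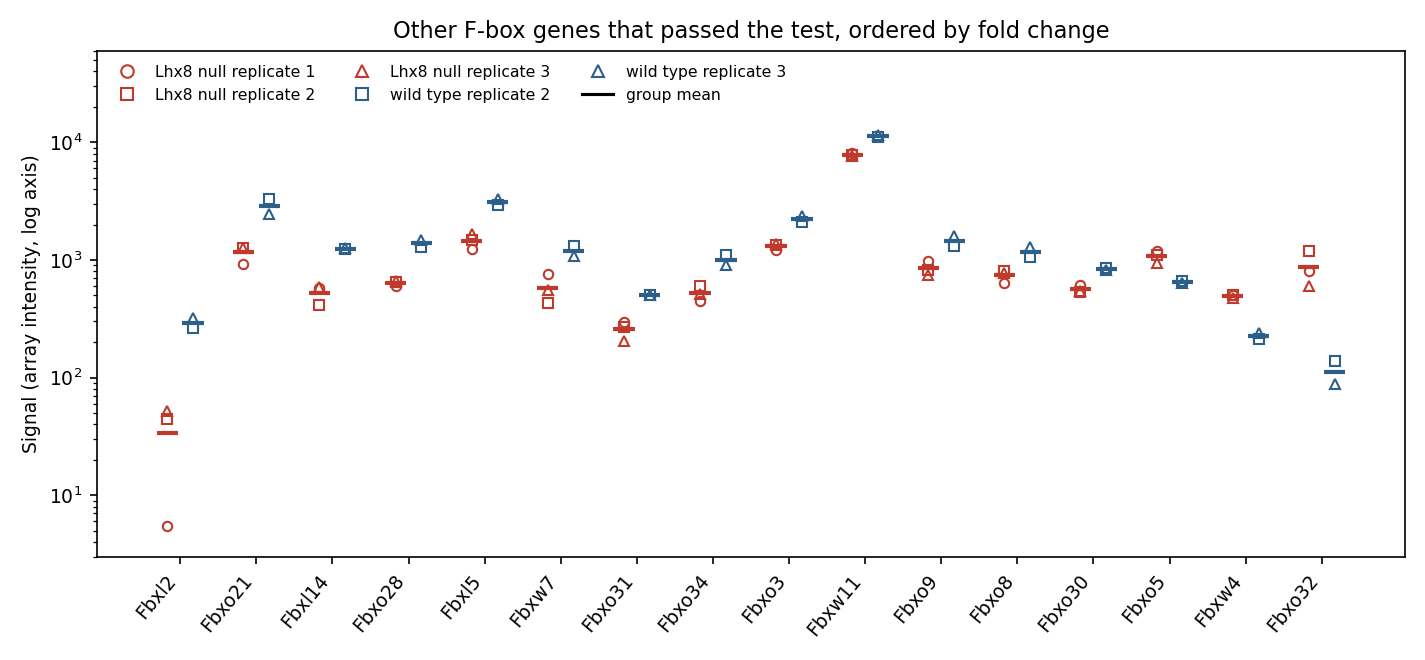
Signal (log axis) on each array of the 16 other F-box genes that passed the test, ordered by fold change, with Lhx8 null arrays (red) left of wild type arrays (blue) and a bar at each group mean. The null arrays lie below the wild type arrays for the 13 genes from Fbxl2 to Fbxo30 and above them for Fbxo5, Fbxw4 and Fbxo32.

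The 3 genes that rose were Fbxo32, Fbxw4 and Fbxo5. Fbxo32, known as atrogin-1, a receptor of skeletal and heart muscle that is induced in wasting, had 813.3, 1199.8 and 603.2 in null ovaries and 137.1 and 87.9 in wild type ovaries. It rose by 2.63 (SE 0.31, adjusted p = 0.00084), and its other probe sets rose by 2.47 and 1.49. Skeletal muscle markers moved in part with it, and their part was not tested. Of the 6, Acta1 and Tnnt3 rose, Myog fell and 3 did not pass. Their summed signal was 984.4, 658.2 and 2418 in null replicates 1, 2 and 3 and 368.4 and 385.2 in wild type replicates 2 and 3. At the brightest Fbxo32 probe set, null replicate 2 had the highest signal of the null arrays, and it had the lowest muscle sum. Null replicate 3 had the lowest signal at that probe set and the highest muscle sum. The other Fbxo32 probe sets ordered the null arrays in other ways. They had 697.4, 677.5 and 439.5, and 313.9, 420.5 and 328.1, in null replicates 1, 2 and 3. Acta1, Tnnt3, Ckm and Casq1 were higher on every null array than on every wild type array, Mylpf overlapped, and Myog was lower on every null array, at 6.6, 7.8 and 11.7 in null ovaries and 26 and 52.5 in wild type ovaries. Other marker lists moved with Fbxo32 too, and their part was not tested either. The oviduct epithelium sum was 12365.6, 12687.3 and 10646.8 in null pools 1, 2 and 3. It was 989.1 and 857.6 in wild type pools 2 and 3. This sum ordered the null arrays as the brightest Fbxo32 probe set did, but not as its other probe sets did. An order of 3 arrays cannot tell which cells gave the Fbxo32 signal. The sum of 4 neural markers, of which Nefl and Stmn2 rose, was 3342.7, 2509.6 and 2874.8 in null ovaries and 349.8 and 497.9 in wild type ovaries.

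Fbxw4, known as dactylin from a limb phenotype of mice, had 501.4, 498.9 and 474.3 in null ovaries and 211.6 and 240.6 in wild type ovaries. It rose by 0.97 (SE 0.17, adjusted p = 0.00599), with little spread among the null arrays, and had adjusted p = 0.0546 without wild type replicate 2. Fbxo5, or Emi1, an inhibitor of the anaphase-promoting complex in dividing cells, had 1196.9, 1110.3 and 951 in null ovaries and 667 and 631.4 in wild type ovaries. It rose by 0.74 (SE 0.15, adjusted p = 0.00879), with adjusted p = 0.0596 without wild type replicate 2, 0.0755 without wild type replicate 3 and 0.0602 without a variance trend. Its relative Fbxo43, or Emi2, which holds mature eggs in metaphase, was near background on all arrays, at 1.9, 10.3 and 1.1 in null ovaries and 9.7 and 13.8 in wild type ovaries (-0.62, adjusted p = 0.217).

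The anaphase-promoting complex, the ligase that Fbxo5 and Fbxo43 inhibit, had 3 of 18 listed genes lower and 2 higher, with a median log2 fold change of 0.02. All 18 were bright, and these counts were near or below the shares of all bright genes, 18.6% lower and 20.7% higher. The genes that fell were Ube2c and Ube2s, its ubiquitin-conjugating enzymes, and the subunit gene Anapc15, at -1.41 (SE 0.12), -0.76 (SE 0.10) and -1.12 (SE 0.13). Its activator gene Cdc20 rose by 0.74 (SE 0.11), and so did Cdc26, at 0.44 and named after its value was seen. With each array centred on its median, none of the list rose: Cdc20 stood at 0.49 (adjusted p = 0.0673). Cdc20 was called with each array left out in turn, and 1 gene of the list was higher on leaving out any array but null replicate 1. When probe sets were averaged, Cdc20 (0.49, adjusted p = 0.0896) and Ube2s (-0.28, adjusted p = 0.337) did not pass.

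Several F-box genes of known interest did not pass. Fbxo15, a target of Oct4 in embryonic stem cells, had 132.9, 58.3 and 151.8 in null ovaries and 269.1 and 200.6 in wild type ovaries, with no overlap (-1.20, SE 0.39, adjusted p = 0.0621), and passed under median centring (adjusted p = 0.0444). Fbxo11 had 969.7, 1710.9 and 1912 in null ovaries and 1675.4 and 1572.3 in wild type ovaries (-0.08, 95% interval -0.69 to 0.53). Null replicate 1 stood apart for Fbxo11, and without it the gene had 0.22 (adjusted p = 0.215). Fbxo22 had a like pattern, with 1710.7, 2406 and 3074.6 in null ovaries and 2546.5 and 2684.4 in wild type ovaries, and stood at 0.10 without null replicate 1. Fbxo7, a gene of inherited parkinsonism in humans, had 0.10 (95% interval -0.21 to 0.42) and stood at -0.16 with each array centred on its median. The 40 other F-box genes that did not pass had fold changes from -1.20 (Fbxo15) to 0.77 (Fbxl8).

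F-box genes that carry other symbols were looked at beside the 66. Of 6 measured, 1 rose and none fell, where 14% of all genes were higher and 13.6% lower. The count of rises is near that share. Skp2, the receptor that marks the cell cycle inhibitor p27 for destruction, had 1357.8, 1443.5 and 1646.2 in null ovaries and 596.5 and 724.9 in wild type ovaries. It rose by 1.18 (SE 0.15, adjusted p = 0.00119), and of its 5 other probe sets 3 rose, by 1.00 to 1.44. Ccnf, which encodes cyclin F, and the histone demethylase genes Kdm2a and Kdm2b had 0.25, 0.30 and -0.08 and did not pass. Cks1b, whose protein helps Skp2 to bind p27, rose by 0.54 (SE 0.15, adjusted p = 0.0408). Neither Skp2 nor Cks1b overlapped between groups.

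Among the shared parts of the SCF ligases and their regulators, 11 of 33 measured genes fell and 3 rose, and the median over the list was -0.25. All but Rbx1 were bright, and among all bright genes 18.6% were lower and 20.7% higher. Skp1, the adaptor that every F-box protein binds, had 12696.5, 10351.5 and 9551.7 in null ovaries and 15172.7 and 16149.4 in wild type ovaries. It fell by 0.84 (SE 0.15, adjusted p = 0.00563), and its second probe set fell by 1.15 (SE 0.11). Without wild type replicate 3 the first had adjusted p = 0.0666, and without a variance trend 0.0615. Cul1 had 2508.8, 2774.6 and 2742.7 in null ovaries and 3536.8 and 3164.4 in wild type ovaries, with no overlap, and did not pass (-0.29, 95% interval -0.55 to -0.03, adjusted p = 0.11). It passed with each array centred on its median (-0.57, adjusted p = 0.0285). Rbx1 was dim (0.40, adjusted p = 0.615).

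Genes of cullin activation by NEDD8 included the deepest fall of these partners. Dcun1d1, which helps to attach NEDD8 to cullins, had 779.2, 614.8 and 673.3 in null ovaries and 3932 and 4763.5 in wild type ovaries. It fell by 2.62 (SE 0.14, adjusted p = 5.03e-05), a difference many times the spread within groups. Of its 4 other probe sets 3 fell (-2.83 to -1.04), and 1 stood at 0.18. Its relative Dcun1d3 fell by 1.11 (SE 0.21, adjusted p = 0.00675), with adjusted p = 0.0739 without wild type replicate 2 and 0.0641 without wild type replicate 3. Nae1, a subunit of the NEDD8-activating enzyme, and Ube2f, a NEDD8-conjugating enzyme, fell by 0.78 (SE 0.10) and 0.68 (SE 0.12), whereas Nedd8 itself had 0.07. Without a variance trend Ube2f had adjusted p = 0.0551.

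The ubiquitin-conjugating enzymes that work with SCF ligases split. Cdc34 had 1199.2, 1008.4 and 1116.6 in null ovaries and 2156.9 and 1996.9 in wild type ovaries and fell by 0.85 (SE 0.13, adjusted p = 0.00249). Ube2r2, its close relative, had 2723, 2846.5 and 3069.9 in null ovaries and 2081.3 and 1369.8 in wild type ovaries and rose by 0.82 (SE 0.17, adjusted p = 0.0127). Cand2, which exchanges F-box proteins on Cul1, rose by 1.24 (SE 0.18, adjusted p = 0.00245), and Cand1 had -0.13. Ube2d3, Ube2g1 and the COP9 signalosome genes Cops2, Cops3 and Cops6 also fell, at -0.75, -0.65, -0.54, -0.61 and -0.46. These 5 and Ube2r2 were named after their values were seen. Without wild type replicate 3, 4 partner genes were lower and 1 higher, and with arrays centred on their medians 16 were lower and 1 higher.

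**Figure D5:**
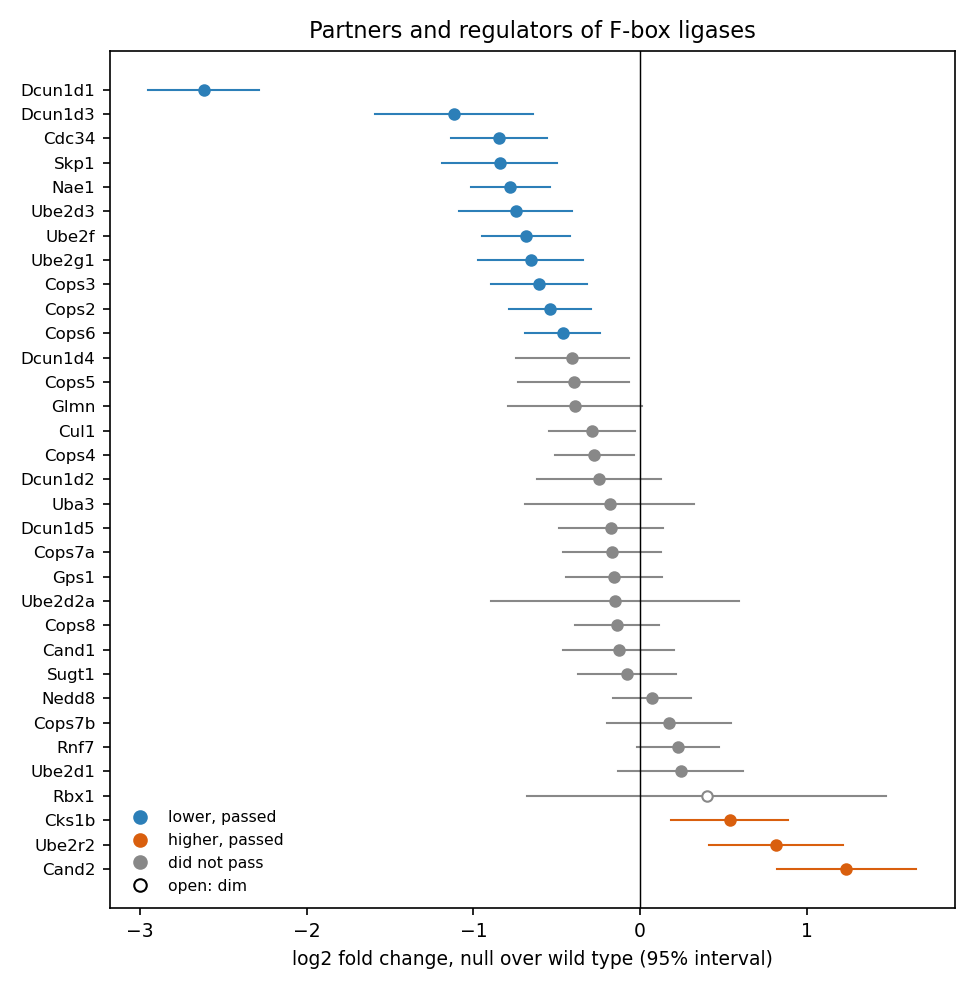
Log2 fold change (null over wild type, horizontal axis) with its 95% interval of the 33 measured partners and regulators of F-box ligases, from the lowest at the top to the highest at the bottom; blue and orange passed the test and the open symbol is a dim gene. Dcun1d1 stands apart at -2.62, and Cks1b, Ube2r2 and Cand2 are the 3 that rose.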

How the data were processed

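The deposited table holds linear intensities, with 1 value for each probe set on each array, from biotin-labelled target per the labels' protocols. Each array's 2% trimmed mean was 500, so they had been scaled per array. The submitters' processing notes name GCOS for the wild type arrays, and the sources used here do not give the software of the null arrays. The log2 of intensity plus 16 was quantile normalised, since array medians differed by 0.38. All 45037 probe sets other than 64 controls were tested with limma 3.58.1 in R 4.3.3 (lmFit, eBayes with a trend, two-sided), with Benjamini-Hochberg adjustment over all of them and a threshold of 0.05. Of these probe sets 34945 had 1 gene symbol, 932 several and 9160 none; gene identifiers of 34741 were found in RefSeq (GRCm38.p6), which changed 0 symbols. A gene was represented by its brightest probe set, with no brightness filter. Genes were named by rule: Lhx8, the oocyte Fbxw genes, the 10 largest falls and up to 10 rises, a fixed set, the 5 brightest, and partners with the smallest p. The members and lists were chosen with earlier results of these data known. Numbers of arrays limit the precision. A p-value sets the difference between groups against the spread between pools, each on 1 array, moderated by a trend over all probe sets. On simulated arrays over 45037 probe sets, 50 probe sets were changed by each size, all of them brighter than the median probe set. Of those changed by 0.5, 1 and 2 (log2), 6%, 46% and 94% were recovered, and 9.56% of calls were false. Far fewer probe sets were changed there than were called in the data. These rates therefore need not hold for the data, least of all for dim genes such as most oocyte Fbxw genes. Promoters were aligned with Biopython 1.88, and figures drawn with matplotlib 3.10.9. Alternatives covered scaling, the constant, a brightness filter, probe set choice, the variance model, the threshold, a replicate block and each array left out. Leaving out a wild type array left 1 in that group. A call lost there can come from fewer data, and does not show that it rested on that array.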

Additional observations from a re-analysis of the deposited data

How the results depend on the processing

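Of 23 F-box genes called, 9 were called with each of the 5 arrays left out in turn: Fbxw14, Fbxw18, Fbxw24, Fbxo21, Fbxo28, Fbxl14, Fbxl5 and Fbxw11, which fell, and Fbxo32, which rose. Leaving out an array gave 4 to 8 oocyte Fbxw genes lower, 5 to 13 other F-box genes lower and 1 to 4 higher, 4 to 11 partner genes lower and 1 to 3 higher, 1 to 3 genes of the anaphase-promoting complex higher, and over all genes 1071 to 2609 lower and 1203 to 2751 higher. With the dimmest 40% of genes left out before the fit, which removed 8 of the 10, 1 oocyte Fbxw gene was lower, and 5 other F-box genes were higher. With arrays centred on their medians, which moved the median of all genes to -0.18, 20 other F-box genes were lower, 1 partner and 0 complex genes higher, and 1615 genes higher against 3363 lower (32.4% of calls higher, 50.8% in the report). Without a trend in the variance, 7 other F-box genes and 4 partners were lower, 1 partner and 1 complex gene higher, and 1532 genes lower and 1453 higher. At a threshold of 0.01, 8 other F-box genes were lower, 1 partner and 1 complex gene higher, and 1383 genes lower and 1419 higher. With the deposited scaling, a constant of 64 or averaged probe sets, 1 complex gene was higher. Directions turned for Fbxw11 (0.16) and Kdm2b (0.072) with averaged probe sets, for Fbxo7 (-0.16) with median centring, and for Fbxo11 (0.22) and Fbxo22 (0.10) without null replicate 1 and with the replicate block. With each array left out in turn Fbxo11 ranged between -0.275 and 0.222 and Fbxo22 between -0.305 and 0.098. The causes were not tested. The shared replicate numbers did not pair the samples (correlation 0.0101 between the groups' differences of replicates 2 and 3). The replicate block on these 4 arrays gave 8 oocyte Fbxw genes lower, 13 other F-box genes lower and 4 higher, and 2571 genes lower and 2777 higher.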

Other observations

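The genes next to the Fbxw run on chromosome 9 were looked at after the values of the run were seen. Of the 3 measured protein-coding genes on each side, 1 of 6 passed. Nme6, a nucleoside diphosphate kinase family gene, had 486.5, 467.4 and 533 in null ovaries and 797.9 and 674.3 in wild type ovaries (-0.56, adjusted p = 0.038). Plxnb1, next to Fbxw21, had 601.5, 422 and 465.7 in null ovaries and 337.4 and 293.8 in wild type ovaries (0.56, adjusted p = 0.0823). Atrip, Ccdc51 and Spink8 stood at -0.01, -0.28 and 0.61 and did not pass. Camp, an antimicrobial peptide gene of neutrophils, had 1540.2, 2963.4 and 72 in null ovaries and 998.1 and 721.3 in wild type ovaries, a spread too wide for a comparison.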
